A study of Rattus norvegicus with 56 samples.

Results

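The comparison described here is that of stage of the oestrous cycle in the mammary gland of untreated female Wistar Furth rats. Of the 56 arrays of the series, it rests on 12, 1 for each control rat, chosen by their labels as single rats without treatment, without repeat arrays and without pools. The labels put 9 of these rats in diestrus. Of the other 3, rats 3 and 10 were labelled estrus and rat 8 proestrus or estrus, so no control rat was labelled proestrus alone, and these 3 rats are called outside diestrus below. The remaining single rats, 6 in diestrus and 6 outside it, had received a treatment that the labels name only as RXR treatment. They took no part in choosing the leading genes of the control comparison. The labels give no age, and stage rests on their wording alone. RNA was taken from the whole gland, so that fewer cells of a type and less RNA per cell cannot be told apart.

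The oestrous cycle of the rat runs from diestrus through proestrus, when oestrogen from the ovary peaks, to estrus, when ovulation takes place. In the mammary gland oestrogen and progesterone act through receptors in a part of the luminal epithelial cells, which signal to their neighbours, so that the ducts and side buds pass through small rounds of growth and regression with each cycle. Oestrogen receptor bound to a palindromic DNA element, or tethered to other factors, regulates genes such as that of the progesterone receptor, and progesterone acts through paracrine signals such as Rankl and Wnt4.

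No gene passed the test for a difference between stages in the control rats. Tested with limma, 0 of 15866 probe sets (0.0%) had a Benjamini-Hochberg adjusted p under 0.05, and the smallest adjusted p was 1.0. At an unadjusted p under 0.05 there were 308 probe sets (1.94%), of which 147 (0.927%) had the higher value outside diestrus and 161 (1.01%) the lower. In 34 probe sets (0.214%) the ranges of the 2 groups did not overlap, 17 (0.107%) with the higher and 17 (0.107%) with the lower values outside diestrus. The median standard error of a stage difference was 0.0741 on the log2 scale, and the 95% interval lay within 1 log2 of no difference for 99.3% of probe sets and within 0.5 log2 for 94.5%. The largest difference between group means was 1.42 on the log2 scale. Every difference given below for a control rat gene therefore failed the adjusted threshold, and the values are a description of these rats.

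By smallest p, 12 genes with the higher and 12 with the lower value outside diestrus led the comparison, and they are described first. Every one of the 24 had its unadjusted p between 0.000529 and 0.0103. Of these genes 16 had a promoter window in RefSeq on the rat build GRCr8, running from 250 bases before to 50 bases after the gene's start. The windows of 3 genes are shown as examples of the leading genes: a lipocalin gene with the smallest p among those higher outside diestrus, a receptor gene whose ranges did not overlap, and the gene with the largest difference among those whose ranges did not overlap. Capitals mark GGTCA or its reverse TGACC, the single arm of the oestrogen response element.
Obp3, chr5:79640626-79640925, minus strand: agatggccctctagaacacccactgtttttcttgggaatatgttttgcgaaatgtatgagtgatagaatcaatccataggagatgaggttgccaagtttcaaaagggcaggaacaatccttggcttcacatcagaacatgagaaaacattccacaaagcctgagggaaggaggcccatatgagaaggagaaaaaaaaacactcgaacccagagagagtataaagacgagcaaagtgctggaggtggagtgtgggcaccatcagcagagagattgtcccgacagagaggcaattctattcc
Oxtr, chr4:147170450-147170749, minus strand: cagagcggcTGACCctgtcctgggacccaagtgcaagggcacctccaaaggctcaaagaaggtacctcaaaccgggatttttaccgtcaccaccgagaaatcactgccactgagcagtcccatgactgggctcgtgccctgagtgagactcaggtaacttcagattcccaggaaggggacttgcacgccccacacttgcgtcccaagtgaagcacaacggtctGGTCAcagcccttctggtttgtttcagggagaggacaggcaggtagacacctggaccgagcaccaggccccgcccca
Ddit4, chr20:28436988-28437287, minus strand: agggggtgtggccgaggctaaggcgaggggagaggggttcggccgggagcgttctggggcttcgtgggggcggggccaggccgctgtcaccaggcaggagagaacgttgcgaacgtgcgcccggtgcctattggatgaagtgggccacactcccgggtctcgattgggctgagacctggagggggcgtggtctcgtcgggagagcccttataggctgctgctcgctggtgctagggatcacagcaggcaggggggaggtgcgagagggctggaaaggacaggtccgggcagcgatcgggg
The Oxtr window held 2 single arms, and the Obp3 and Ddit4 windows held none. The palindrome GGTCANNNTGACC, which reads the same on both strands, was in no window of the 16 genes and in 9 of all 33469 windows (0.0269%). A single arm on either strand, which includes the arms of the palindrome, was in at least 1 window of 6 of the 16 genes (37.5%) and of 11599 of 27457 genes in the table (42.2%). A match in these letters is a description of the window only.

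Obp3 and Agt had large differences in the direction of higher values outside diestrus. Obp3, which encodes a lipocalin of the odorant-binding group, read 6.44, 7.91 and 7.49 on the log2 scale in rats 3, 8 and 10, and from 5.91 to 6.66 with a median of 6.27 in the 9 diestrus rats. Rats 8 and 10 lay above every diestrus rat, and rat 3, on its first array, lay inside the diestrus range. The difference was 1.01 ± 0.24 (SE) log2, a fold of 2.02, and the second probe set of the gene gave 0.50 ± 0.12. Agt, which encodes angiotensinogen, the precursor of the angiotensins, read 10.55, 9.93 and 10.65 in those 3 rats and from 8.99 to 10.25 with a median of 9.49 in diestrus. Here rat 8 lay inside the diestrus range, and the difference was 0.84 ± 0.24 log2, a fold of 1.79.

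Receptor and signalling genes followed. Oxtr, the oxytocin receptor through which myoepithelial cells contract at milk ejection, read 7.68, 7.68 and 8.21 outside diestrus and from 7.06 to 7.66 in diestrus. With the first array of rat 3 its ranges did not overlap, by a margin of less than the spread between rats of a stage. The repeat arrays of rat 3 read 7.59 and 7.57, inside the diestrus range. The difference was 0.48 ± 0.14 log2. Il18, a cytokine that induces interferon gamma, read 8.68, 8.59 and 9.75 outside diestrus and from 7.75 to 8.59 in diestrus, with a difference of 0.84 ± 0.23. Rat 10 was the high rat, and without it the difference was 0.47. Ddr2, a receptor tyrosine kinase for collagen, read 6.04, 6.14 and 6.10 against 5.73 to 6.03 in diestrus and differed by 0.19 ± 0.06. Its second probe set differed by 0.15 ± 0.18, and on the second repeat array of rat 3 it read 6.03 by the first probe set. Rgs5, a regulator of G protein signalling, differed by 0.21 ± 0.06. Fkbp4, an Hsp90 cochaperone of steroid receptors, read 9.39, 9.56 and 9.52 against 9.08 to 9.43 in diestrus and differed by 0.23 ± 0.08.

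Among enzymes and transporters, Mmp14, a membrane-bound matrix metalloprotease, read 11.20, 11.57 and 11.38 outside diestrus and from 10.17 to 11.21 in diestrus. The lowest of the 3 rats, rat 3 on its first array, lay just inside the diestrus range, and the difference was 0.55 ± 0.19 log2. Mgll, the lipase of monoacylglycerols, read 8.22, 7.98 and 7.65 against 6.91 to 7.67 in diestrus and differed by 0.59 ± 0.17. The other probe sets of Mgll differed by 0.30, -0.01 and 0.11, so its difference belongs to 1 probe set of 4. Slc1a3, a glutamate transporter, differed by 0.34 ± 0.11. Glipr1 (0.15 ± 0.05) and the MHC class I gene RT1-A3 (0.17 ± 0.05) had ranges that did not overlap, but their differences were small, and RT1-A3 belongs to a family of closely similar genes whose transcripts a probe set may share.

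Of the 12 genes with lower values outside diestrus, Ddit4 had the largest difference. It encodes an inhibitor of mTORC1 that stress and glucocorticoids induce. It read 7.28, 7.14 and 6.97 in rats 3, 8 and 10, and from 7.50 to 8.25 with a median of 7.97 in diestrus. The ranges did not overlap, and within diestrus 4 rats lay between 7.50 and 7.63 and the other 5 between 7.97 and 8.25. The difference was -0.75 ± 0.17 log2, 1.68-fold lower, with a 95% interval of -1.11 to -0.39. Without any 1 rat, with a repeat array in place of rat 3's first and under the other settings tried, it ran from -0.82 to -0.67.

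Transport genes were also among the lower ones. Scnn1b, the beta subunit of the epithelial sodium channel, read 8.71, 8.95 and 9.20 outside diestrus and from 9.07 to 10.13 with a median of 9.60 in diestrus. Rat 10 was inside the diestrus range, and the difference was -0.60 ± 0.18 log2. Slc16a1, a transporter of lactate and pyruvate, read 8.63, 9.12 and 8.89 against 9.03 to 9.77 and differed by -0.53 ± 0.14. Outside the 12, Scarb1, the receptor for high density lipoprotein, was named as one of the larger differences without overlap. It read 9.55, 9.74 and 9.82 against 9.87 to 10.33 and differed by -0.35 ± 0.11, with ranges that did not overlap and a second probe set at -0.35.

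Genes of the cytoskeleton and of cell contact had small differences over little spread. Ptprf, a receptor tyrosine phosphatase, had the smallest p of all, 0.000529 unadjusted. It read 9.92, 10.01 and 10.01 against 10.09 to 10.38 in diestrus and differed by -0.27 ± 0.06, while its other probe set differed by 0.02 ± 0.19. Inf2, a formin that assembles actin, read 9.14, 9.18 and 8.98 against 9.25 to 9.45 and differed by -0.25 ± 0.06. Smtn, a cytoskeletal protein of contractile smooth muscle, read 8.27, 8.20 and 8.11 against 8.28 to 8.48 and differed by -0.21 ± 0.05. In these 3 genes the ranges did not overlap with the first array of rat 3. With its second repeat array those of Ptprf and Smtn overlapped. Actn4, an actin cross-linker, differed by -0.32 ± 0.09 with overlapping ranges.

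The remaining leading genes on this side were Lbp, Sectm1b, Rab4b, Map1lc3a and Il17re. Lbp, which binds bacterial lipopolysaccharide, read 12.03, 12.04 and 12.19 against 12.12 to 12.76 and differed by -0.35 ± 0.11. Sectm1b differed by -0.50 ± 0.15, Rab4b, a GTPase of recycling endosomes, by -0.22 ± 0.07, and Map1lc3a, a protein of autophagosomes, by -0.15 ± 0.05. Il17re, a receptor subunit for interleukin 17C, read 8.13, 8.14 and 8.28 against 8.29 to 8.38 and differed by -0.16 ± 0.04, but its second probe set differed by 0.02. Tnfsf13, the B-cell cytokine April, was not among the 12 but was named for its difference without overlap. It read 8.32, 8.48 and 8.41 against 8.53 to 8.97 and differed by -0.29 ± 0.09 with no overlap.

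**Figure D1:**
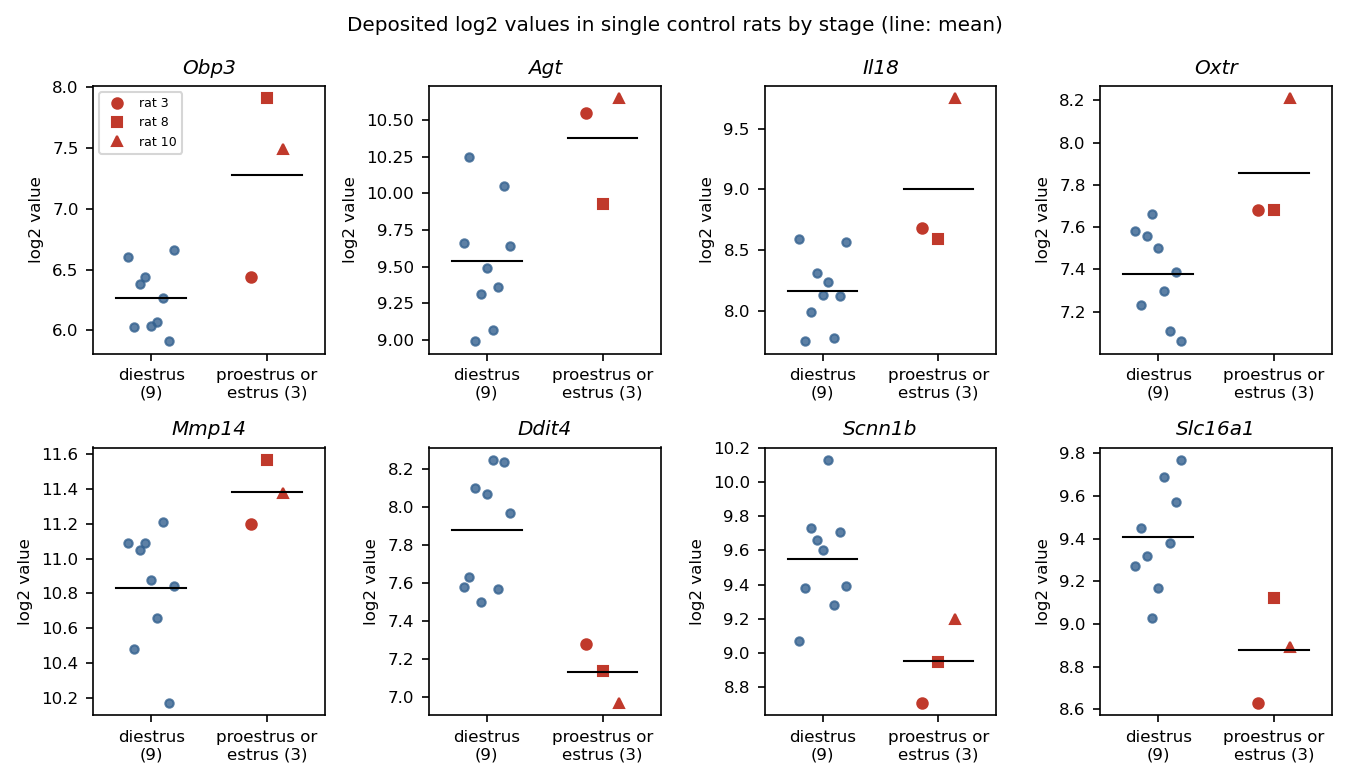
Deposited log2 values (vertical axis, scale differs between panels) of 8 leading genes in single control rats, 9 in diestrus (blue) and 3 outside it (red, symbols by rat), with the group mean as a line. With the first array of rat 3, shown here, only Oxtr and Ddit4 of the 8 have ranges that do not overlap. With either repeat array of rat 3 the ranges of Oxtr overlap and those of Mmp14 do not. With the second repeat those of Obp3 do not overlap either. For Obp3 the circle of rat 3, at 6.44, lies among the diestrus rats, and for Il18 rat 10, at 9.75, lies far above the other 2.

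Array error bears on these values, because rat 3 was hybridised on 3 arrays and its first array, used above, stood apart. A technical score, the position on the main component of differences between repeat arrays, was 12.5 for the first array of rat 3, -4.53 and -11.8 for its repeat arrays, and from -15.1 to 4.39 in the 9 diestrus rats. The difference in mean score between the stages had p = 0.536 (exact permutation test over 220 choices, two-sided). Rats 8 and 10 scored -6.58 and -1.43, so of the rats outside diestrus only rat 3 lay above the diestrus range. The arrays of rat 3 are among those from which the score was built. With the first repeat array of rat 3 in its place, ranges did not overlap in 49 probe sets, of which 13 were among the 34 found with the first array, and 8 probe sets did not overlap with any of the 3 arrays. Ddit4, Inf2, Scarb1 and Ccnb1 were among these 8. With the first repeat array 20 of the 24 leading genes kept an unadjusted p under 0.05. Of the 24, ranges did not overlap in 9 with the first array, in 5 with the first repeat and in 5 with the second. These were in part different genes, and only 2, Ddit4 and Inf2, did not overlap with any of the 3 arrays. Mmp14 lost its overlap with both repeats, and Obp3 and Fkbp4 lost theirs with the second. The repeats of Oxtr (7.59 and 7.57), Smtn (8.37 and 8.41) and Glipr1 (7.33 and 7.32) lay within the diestrus range. Il17re read 8.13 on the first array and 8.47 and 8.45 on the repeats, above every diestrus rat, and its difference became -0.05. RT1-A3 read 5.76, 5.51 and 5.41, with a difference of 0.08, Slc1a3 differed by 0.23 and Map1lc3a by -0.08. Slc16a1 read 8.63, 9.02 and 9.10 on the 3 arrays, and its difference was -0.40 with the first repeat. Obp3 read 6.44, 6.48 and 6.70, the last above the diestrus range. Mmp14 read 11.20, 11.31 and 11.26, with both repeats above the diestrus range. Agt (10.55, 10.59 and 10.69) lay above the diestrus range on all 3 arrays.

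**Figure D2:**
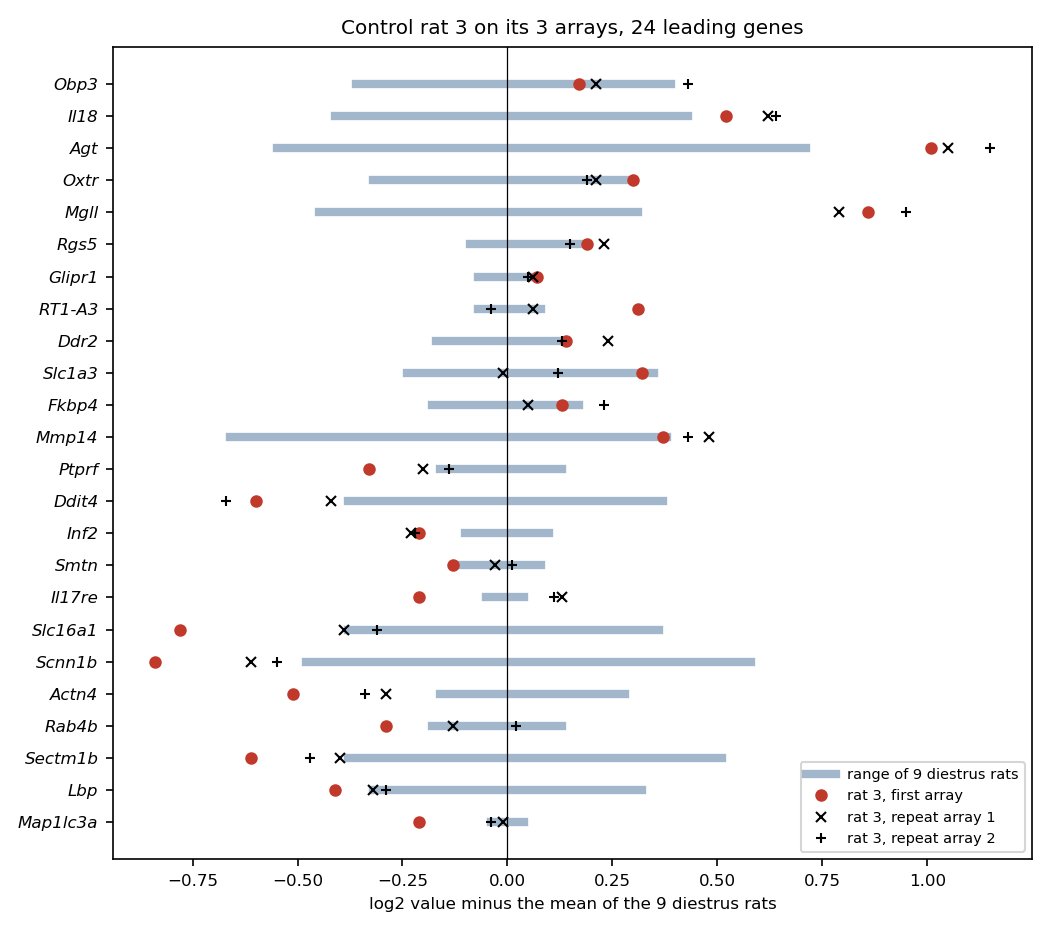
Control rat 3 on its first array (red circle) and 2 repeat arrays (crosses) for the 24 leading genes, as log2 value minus the mean of the 9 diestrus rats, whose range is the blue bar. For Ddit4 and Inf2 all 3 arrays lie below the diestrus range, whereas for Il17re the first array lies below it and both repeats above it.

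None of the treated rats was used to choose the 24 leading genes. Unlike the control rats, those outside diestrus included a rat labelled proestrus alone, so stage make-up differed along with treatment. With that limit, the treated rats gave a second reading of diestrus against the other stages. There too 0 of 15866 probe sets passed (0.0%), with 552 at an unadjusted p under 0.05 (3.48%, of them 2.14% higher and 1.34% lower outside diestrus) and a smallest adjusted p of 0.393. Among the 24 leading genes the sign of the stage difference was that of the control rats in 16 (66.7%), against 8608 of all 15866 probe sets (54.3%). It was so in 9 of the 12 with higher values (75.0%) and in 7 of the 12 with lower values (58.3%). Among all probe sets with an unadjusted p under 0.05 in control rats those shares were 68.7% and 51.6%. With an unadjusted p under 0.05 in treated rats as well, 3 of the 24 had the same sign (12.5%, against 2.13% of all probe sets), namely Obp3, Agt and Il17re. Obp3 differed there by 1.05 ± 0.27 log2 and Agt by 1.23 ± 0.29. Il17re differed by -0.14 ± 0.06. Its difference in control rats was, however, -0.05 with the first repeat array of rat 3 and -0.13 without rat 3, and its second probe set gave 0.02 there.

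For most of the other leading genes the treated rats showed a difference near 0. Ddit4 differed by -0.01 ± 0.16, Oxtr by 0.01 ± 0.21, Mmp14 by 0.03 ± 0.18, Mgll by -0.02 ± 0.26 and Il18 by 0.10 ± 0.25. Ptprf (0.05 ± 0.08) and Inf2 (0.03 ± 0.08) had the sign opposite to that in control rats. Scnn1b (-0.21 ± 0.12), Sectm1b (-0.36 ± 0.18) and Slc16a1 (-0.16 ± 0.16) kept the sign at a smaller size. Tnfsf13, which was not one of the 24, differed by -0.39 ± 0.14 at an unadjusted p of 0.0172. The test of the interaction, which asks whether the stage difference itself differed between control and treated rats, called 0 of 15866 probe sets (0.0%), with 322 at an unadjusted p under 0.05 (2.03%, of them 0.731% with a positive and 1.3% with a negative interaction), and all adjusted p were 1.0. The interaction was -0.74 ± 0.25 for Ddit4, 0.48 ± 0.28 for Oxtr and -0.04 ± 0.40 for Obp3. The smallest interaction p belonged to Smtn, whose difference was -0.21 in control and 0.17 in treated rats. Med22, Trim11 and Arhgef17 came next, with interactions of -0.33 ± 0.09, -0.21 ± 0.06 and -0.28 ± 0.08.

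**Figure D3:**
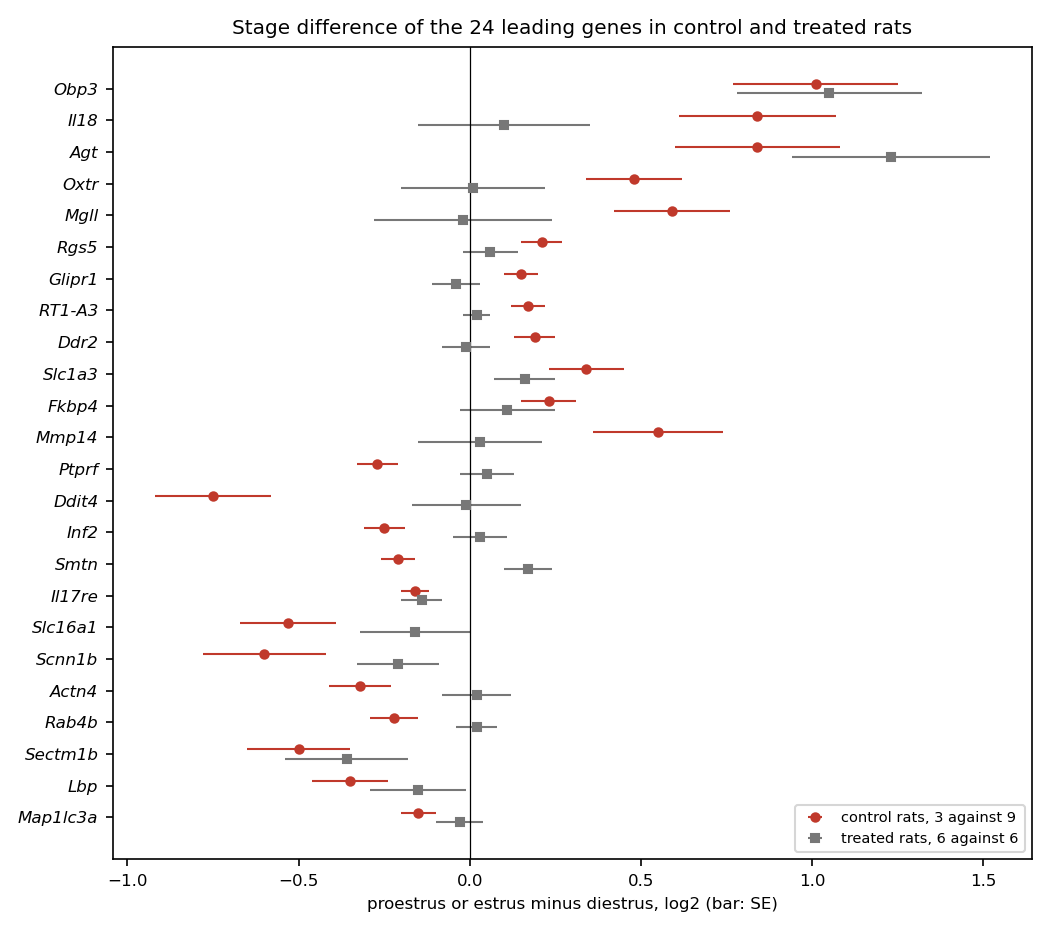
Stage difference (horizontal axis, log2, with SE as bars) of the 24 leading genes in control rats, 3 against 9 (red), and in treated rats, 6 against 6 (grey). Obp3 (1.01 and 1.05) and Agt (0.84 and 1.23) lie far from 0 in both, whereas Ddit4, Oxtr, Mgll and Mmp14 lie near 0 in treated rats; the genes were chosen for their control values.

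Pools of labelled targets from the same control rats were also hybridised. They are further arrays of the same animals and no test was made. Every pool with a rat from outside diestrus also held diestrus rats. The size of a pool difference is therefore not comparable with that of a single-rat difference. In pools of 2 rats, 3 held a rat from outside diestrus and 3 did not. Obp3 read 6.85 to 7.21 in the former and 5.90 to 6.31 in the latter, Oxtr 7.65 to 7.81 and 7.10 to 7.29, Mmp14 11.24 to 11.28 and 10.69 to 10.98, and Inf2 9.20 to 9.23 and 9.38 to 9.66. Those ranges did not overlap. Ddit4 (7.22 to 7.60 and 7.48 to 8.48), Agt (9.68 to 10.40 and 9.75 to 9.95) and Scnn1b (9.01 to 9.52 and 9.41 to 9.87) overlapped. For Glipr1 the pools that held such a rat differed from the others by -0.13 log2, opposite in sign to the single rats. In pools of 3 rats, 3 held such a rat and 1 did not, and the difference between them was 0.43 log2 for Obp3, 0.29 for Oxtr, 0.30 for Mmp14, 0.12 for Agt, -0.73 for Ddit4 and -0.29 for Scnn1b. For Inf2 it was 0.08 and for Smtn 0.14, opposite in sign to the single rats.

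The genes of ovarian hormone action were read next, each list with its counts at an unadjusted p under 0.05. Over all probe sets, 0.927% were higher and 1.01% lower outside diestrus at that p, and these shares stand beside every list below. In a fit of 1 probe set for each of 10411 genes, 65 were higher and 123 lower. Of 20 receptor genes measured, 2 were higher outside diestrus, Oxtr and the epidermal growth factor receptor Egfr, and 0 lower, with a list median of 0.01 beside 0.00 for all probe sets. The count of 2 was 3 in the fit of all 24 rats, 1 without any of rats 2, 3, 5, 6, 12, 13, 14 and 15 and 0 without rat 10. Egfr read 7.05, 7.44 and 7.24 against 5.84 to 7.26 in diestrus and differed by 0.57 ± 0.26, while its second probe set differed by 0.03. Esr1, the main oestrogen receptor of the gland, read 5.89, 5.74 and 5.82 against 5.69 to 6.02, a difference of -0.02 with a 95% interval of -0.15 to 0.12. Pgr, the progesterone receptor, read 6.43, 6.23 and 7.29 against 6.08 to 6.79. Only rat 10 was above the diestrus range, the difference was 0.26 ± 0.19, and without rat 10 it was -0.06. Prlr, the prolactin receptor, read 9.84, 9.85 and 10.07 against 8.54 to 9.89 and differed by 0.47 ± 0.27, with 0.12 and 0.34 for its other probe sets.

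Of 19 genes listed for oestrogen response, 0 had an unadjusted p under 0.05 in either direction, and the list median was 0.05. Over the settings tried the count ran from 0 to 4 higher and from 0 to 1 lower, and the median from -0.05 to 0.13. Areg, the epidermal growth factor family ligand through which oestrogen acts on ducts, read 8.65, 9.13 and 10.44 outside diestrus and from 6.57 to 10.68 with a median of 8.14 in diestrus. The 9 diestrus rats spanned the 3 others entirely, and the difference was 1.01 ± 0.72 log2. Ctsd, a lysosomal protease gene that oestrogen induces in breast cancer cells, read 11.55, 11.58 and 11.68 against 11.05 to 11.75 and differed by 0.29 ± 0.13, and Igfbp4 differed by 0.21 ± 0.13. The 22 genes of progesterone and paracrine signals likewise had 0 members under an unadjusted p of 0.05, and from 0 to 1 in each direction over the settings. Id2 was at 0.70 ± 0.47 (0.10 for its second probe set) and Cish at -0.30 ± 0.16, and the median was 0.01.

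Cell cycle genes leaned to lower values outside diestrus. Of 25 measured, 8 had a positive difference, against 53% of all probe sets, and 17 a negative one. At an unadjusted p under 0.05, 2 were lower, against 1.01% of all probe sets, and 0 higher. The median was -0.05. Ccnb1, which encodes cyclin B1, read 7.17, 7.16 and 7.11 against 7.21 to 7.74 in diestrus and differed by -0.28 ± 0.09, with no overlap and a second probe set at -0.13. Aurka, a mitotic kinase, read 6.27, 6.34 and 5.98 against 6.26 to 6.72 and differed by -0.30 ± 0.10. Top2a differed by -0.41 ± 0.26 and Ccnb2 by -0.39 ± 0.21. The mean over the list was 7.37, 7.69 and 7.06 in rats 3, 8 and 10 and from 6.93 to 7.99 in diestrus, and without rat 10 the list median was 0.04. The count of 2 was 0 in the fit of all 24 rats, 1 without rat 10 and 4 without rat 5 or rat 14.

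Genes of milk secretion and of luminal epithelium also leaned to lower values outside diestrus. Of 15 genes of milk protein and secretion, 4 were lower at an unadjusted p under 0.05 and 0 higher, and the median was -0.21. Over all probe sets 1.01% were lower and 0.927% higher at that p. Csn3, kappa-casein, read 12.19, 13.05 and 12.51 against 12.76 to 13.38 and differed by -0.43 ± 0.16. Rat 8 was at the diestrus median. Wap, whey acidic protein, read 9.42, 9.74 and 9.18 against 9.05 to 11.44 and differed by -0.82 ± 0.37. Mfge8, a milk fat globule protein, read 12.45, 12.50 and 12.28 against 12.45 to 12.87 and differed by -0.26 ± 0.08. Lcn2, an antibacterial lipocalin, differed by -0.33 ± 0.13. Csn2, beta-casein, had the largest difference of all probe sets, -1.42 ± 0.99, but read 8.21, 10.19 and 6.18 against 6.90 to 11.68, so that rats of a stage differed more than the stages did. The count of 4 was 0 without rat 10, 1 by the exact rank-sum test, 2 without rat 3 or in the fit of all 24 rats and 6 with array weights, and in treated rats it was 0, with a median of 0.00.

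Of 21 luminal epithelial markers, 4 were lower and 0 higher at an unadjusted p under 0.05, and the median was -0.14. The shares over all probe sets were 1.01% lower and 0.927% higher. Cldn3, a claudin of tight junctions, read 10.10, 10.13 and 10.04 against 10.14 to 10.42, without overlap, and differed by -0.18 ± 0.06. The repeat arrays of rat 3, however, read 10.42 and 10.39 for Cldn3. Cldn7 differed by -0.27 ± 0.10, Spint2, an inhibitor of epithelial proteases, by -0.15 ± 0.05, and Ocln, occludin, by -0.26 ± 0.11. The second probe set of Ocln differed by -0.04. Cldn7 read 9.10 on the first array of rat 3 and 9.46 and 9.48 on its repeats. The count of 4 was 1 with the repeat array of rat 3, without rat 10 or in the fit of all 24 rats, 8 without rat 14 and 10 with array weights, and in treated rats it was 0 with a median of -0.00.

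Markers of the cell types that a gland sample can hold were set beside these genes, as sums of linear values over a list. The luminal sum ran from 22038 to 23947 outside diestrus and from 23596 to 28333 in diestrus. The sum of 14 basal and myoepithelial markers ran from 14477 to 15370 and from 14155 to 21502. Of these markers, 5 had a positive and 9 a negative difference. At an unadjusted p under 0.05, Oxtr was the 1 higher (0.48 ± 0.14). Acta2, the actin of myoepithelium and smooth muscle, was the 1 lower (-0.40 ± 0.18, and 0.04 in treated rats). Over the settings tried, the higher members ran from 0 to 1 and the lower ones from 0 to 4. The sum of 17 adipocyte markers ran from 30599 to 40040 and from 25806 to 45115, where 13 genes had a positive difference (against 53% of all probe sets), 0 with an unadjusted p under 0.05, and the median was 0.11. Their part in the differences of single genes was not tested. Lymphocyte and lymph node markers summed to 1173 to 1861 and 1061 to 1713, skeletal muscle markers to 2939 to 3381 and 2677 to 3582, and skin markers to 512 to 561 and 494 to 1059. Csn3, a defining gene of mammary epithelium, read from 12.19 to 13.38 in the 12 rats, on arrays whose values ran from 4.13 to 13.81.

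**Figure D4:**
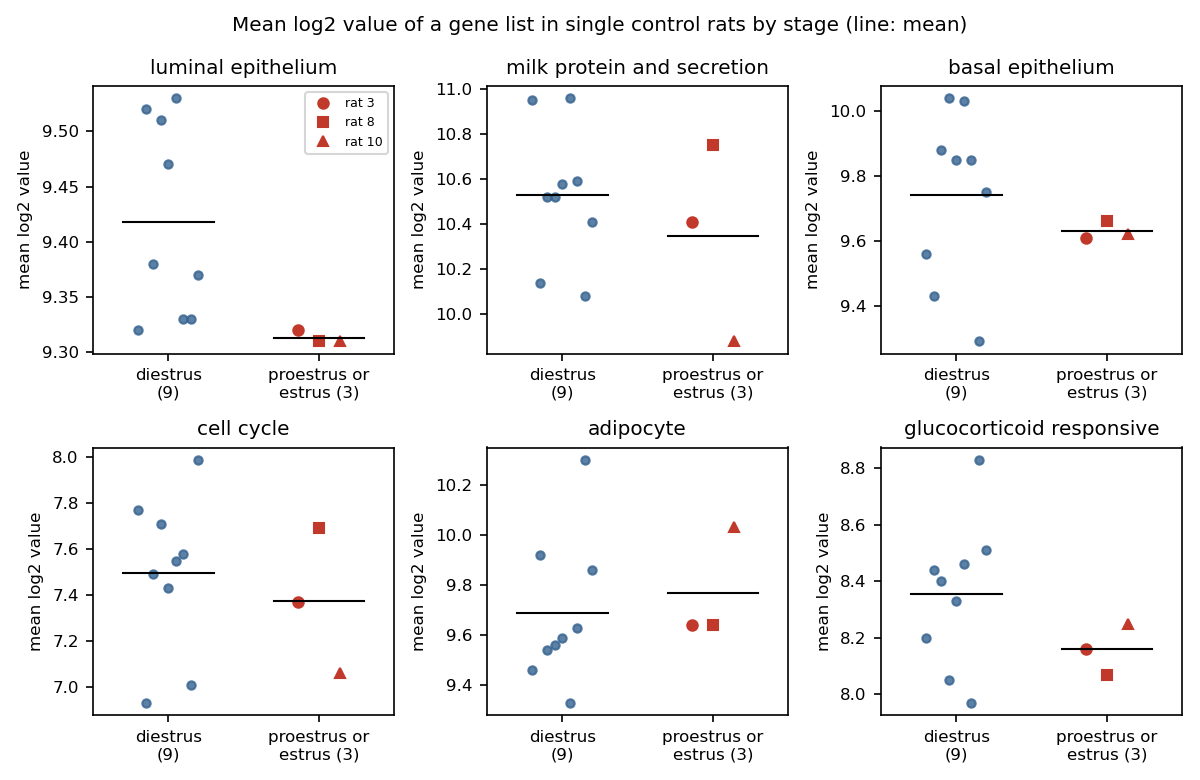
Mean log2 value of 6 gene lists (vertical axis, scale differs between panels) in single control rats, 9 in diestrus (blue) and 3 outside it (red, symbols by rat), with the group mean as a line. The luminal means of the 3 rats outside diestrus, 9.31 to 9.32, lie at the lower end of the diestrus range of 9.32 to 9.53, and the other lists overlap widely.

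In the renin-angiotensin and fluid balance list, Agt was the 1 gene of 21 with a higher value at an unadjusted p under 0.05. Ace and Scnn1b were the 2 with lower values. Over all probe sets the shares were 0.927% higher and 1.01% lower. Ace, the enzyme that converts angiotensin I to angiotensin II, read 7.97, 8.09 and 8.29 outside diestrus and from 8.01 to 9.21 with a median of 8.77 in diestrus. Its difference was -0.60 ± 0.19, and in treated rats -0.12 ± 0.16. The angiotensin receptor gene Agtr1a differed by 0.09. These counts were the same with the repeat array of rat 3 and without any 1 of the 12 rats. Among 13 lipocalins and odorant-binding proteins, Obp3 was higher and Lcn2 and Ptgds lower, with Ptgds, prostaglandin D2 synthase, at -0.26 ± 0.11. The 2 lower members were 0 without rat 10 and 1 without any of rats 3, 8, 9, 11, 12, 13 and 14, and without rat 8 the higher members were 2.

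Genes that glucocorticoids induce had the list median farthest from 0 together with the milk genes, -0.21 over 17 genes. Of these, 13 had a negative and 4 a positive difference, where 53% of all probe sets had a positive one. Ddit4 was the 1 member with an unadjusted p under 0.05, and there were 3 without rat 2 or rat 9 and 2 without rat 13. Tsc22d3, the glucocorticoid-induced leucine zipper gene, read 8.96, 9.03 and 9.35 against 8.61 to 10.59 in diestrus and differed by -0.53 ± 0.33, and Nfkbia, the inhibitor of NF-kappa-B, read 9.36, 9.43 and 9.70 against 9.38 to 10.54 and differed by -0.39 ± 0.21. In treated rats these genes differed by -0.80 ± 0.18 and -0.69 ± 0.18, each with an adjusted p of 0.999, whereas Ddit4 differed by -0.01. The list median in treated rats was -0.11. In control rats it ran from -0.28 to -0.05 over the settings tried.

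Among the other lists, single members had an unadjusted p under 0.05, where 0.927% of all probe sets were higher and 1.01% lower at that p. Ccl2, a monocyte chemokine, differed by 0.19 ± 0.09 among 16 macrophage genes, Fads1, a fatty acid desaturase, by -0.32 ± 0.13 among 24 lipogenic genes, and Mmp14 by 0.55 among 18 matrix proteases and inhibitors. Sox10 (-0.26 ± 0.11) and Cnp (-0.37 ± 0.16) were the 2 of 14 nerve and Schwann cell genes, a count of 0 without any of rats 3, 8, 9, 10, 11 and 12 and 1 without rat 6 or rat 13. Ifit3 (0.12 ± 0.06) and Mx1 (0.21 ± 0.10) were the 2 of 16 interferon genes, a count of 4 without rat 10, 1 without any of rats 2, 6, 14 and 15, and 0 without any of rats 5, 8, 9, 11 and 13 or in the fit of all 24 rats. Genes with wide spread between rats had no clear order by stage: Glycam1, a mucin of milk and of lymph node vessels, read 11.64, 12.76 and 6.01 against 5.89 to 12.25, and Cyp2e1, a cytochrome P450 of fat and liver, read 8.42, 8.07 and 10.28 against 7.68 to 9.43.

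**Figure D5:**
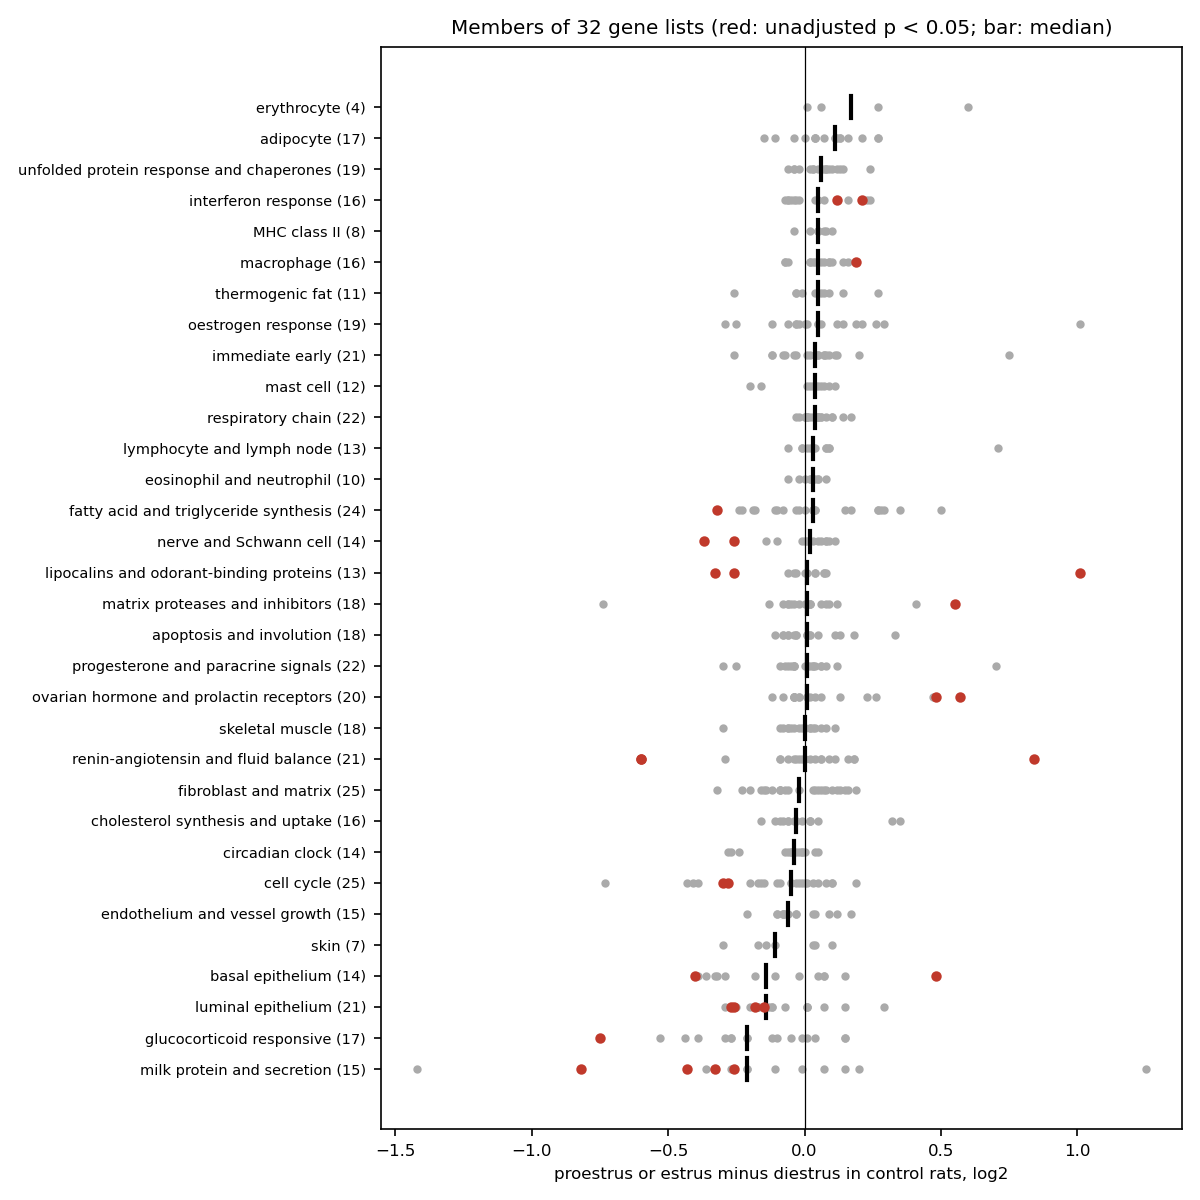
Stage difference in control rats (horizontal axis, log2) of every measured member of 32 gene lists, with members at an unadjusted p under 0.05 in red, the list median as a black bar and the number of members in brackets. The milk and glucocorticoid lists have the lowest medians, -0.21, and most lists have medians between -0.06 and 0.06.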

How the data were processed

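Total RNA of each gland was made into labelled, fragmented cRNA and hybridised to a rat expression array, per the labels' protocols. The deposited values are 1 per probe set and array, and were taken as log2 from their range, since the authors' scale is not stated. The sources used here do not name the software, background correction or normalization. The number of arrays limits the precision. All columns were mapped to samples.

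The 57 control probe sets were left out. Of 15866 tested, 12783 had 1 gene symbol, 312 several and 2771 none in the platform table, and 12748 were matched to RefSeq genes of GRCr8. Stage was tested in R 4.3.3 with lmFit and eBayes of limma 3.58.1 on 1 array per rat, with Benjamini-Hochberg adjustment over all probe sets and a threshold of 0.05. The fit was run on simulated data with independent noise in each probe set. That run does not cover array error shared between probe sets. Tables and plots were made with Python 3.11.15, pandas 2.3.3 and matplotlib 3.10.9. A list uses 1 probe set per gene.

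The genes named were the 12 of smallest p in each direction, the 6 largest differences without overlap, up to 4 of smallest p in each of 32 lists, Agt, Obp3, Esr1, Pgr and Prlr, and the 4 of smallest interaction p. Csn2, Glycam1, Cyp2e1 and Agtr1a were added after their values were seen, as were Areg, Cxcl13 and Fkbp4, which the rule also names. The members and lists were chosen with earlier results of these data known. Alternatives were other normalizations, array weights, priors, filters, the technical score as a covariate, repeat arrays of rat 3, and leaving out each rat.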

Additional observations from a re-analysis of the deposited data

Results flagged for a closer look

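Of 72 values tested in the 9 diestrus control rats, 4 had 1 rat far from the others, and chance gives about 1 in 20. Cyp2e1 read 9.43 in rat 5 and from 7.68 to 8.24 in the other diestrus rats. The mean of the skin list was 6.82 in rat 5, against 5.94 to 6.1 in the others. The mean of the lymphocyte and lymph node list was 6.44 in rat 14, against 6.1 to 6.27. The technical score was -15.1 in rat 15, against -3.27 to 4.39. Without rat 15 the difference of Obp3 was 1.06, that of Agt 0.85 and that of Ddit4 -0.74.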

How the results depend on the processing

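No probe set was called under any of 25 alternatives or at a threshold of 0.1, and the smallest adjusted p in any of them was 0.101, without rat 3. The sign was followed for 39 named genes, among them the 24 leading genes, which had been chosen for small p in these rats. Wap, Csn3, Cldn3, Ace, Egfr and other list members were not among the 39. Of the 39, 35 kept their sign in all alternatives. The exceptions, each with its lowest and highest value without 1 rat, were Cxcl13 (-0.08 without rat 10 to 1.26), Pgr (-0.06 without rat 10 to 0.47), Esr1 (-0.05 to 0.02 without rat 8, and 0.01 without rat 11) and Glycam1 (-0.06 without rat 8 to 3.31). The number with an unadjusted p under 0.05 and higher values outside diestrus was 65 with 1 probe set per gene, where fewer probe sets were tested, 236 with array weights and from 112 to 395 without 1 rat, 395 being without rat 8. The number with lower values was from 105 (without rat 3) to 274 (without rat 10). The number whose ranges did not overlap was 19 with 1 probe set per gene, 60 after quantile normalization and from 36 to 370 without 1 rat. It can only grow when a rat is left out, and was 370 without rat 8, 252 without rat 10, 163 without rat 3, 78 without rat 2, 73 without rat 14, 66 without rat 15, 53 without rat 11 and 52 without rat 6. With rat 3 by its repeat array and rat 15 left out, chosen after seeing the data, the 3 numbers were 262, 456 and 181, and the cause was not tested. The exact rank-sum test gave 126 and 132 at an unadjusted p under 0.05, and 0 after adjustment. No paired analysis was possible because the 2 stage groups hold different rats and share no rat number. With 3 rats outside diestrus, a difference under 0.16 log2 is within the 95% interval of a typical probe set.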

Other observations

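Mitochondrial and chaperone genes had small differences, mostly positive, without any member at an unadjusted p under 0.05. Over the settings tried, up to 6 respiratory chain genes and up to 2 chaperone genes were higher at that p. Of all probe sets, 53% had the higher value outside diestrus. Of 22 respiratory chain genes, 19 had the higher value outside diestrus, with a median of 0.04 and a range of -0.03 to 0.17, led by Ndufb8 of complex I (0.17). Of 19 genes of the unfolded protein response and chaperones, 15 had the higher value, with a median of 0.06 and Hsph1, a heat shock protein of the Hsp110 class, at 0.24 ± 0.11. Of 14 circadian clock genes, 12 had the lower value, with a median of -0.04 and Per1 at -0.27 ± 0.16. The labels give no time of day. All 4 erythrocyte genes measured had the higher value, with Hbb, a beta globin, at 11.58, 12.44 and 11.93 outside diestrus and from 10.82 to 12.40 in diestrus. In treated rats Hbb differed by -0.54 ± 0.31.

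Over all probe sets, the distance between 2 rats was taken as the median absolute difference of their log2 values. It ran from 0.08 to 0.21 (median 0.1) over 27 pairs of different stage, from 0.07 to 0.19 (median 0.105) over 36 pairs within diestrus and from 0.1 to 0.14 (median 0.13) over 3 pairs outside it, so that the ranges overlapped. Between the 3 arrays of rat 3 it was 0.08 to 0.16 (median 0.11).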
